A study of Homo sapiens with 45 samples.

Results

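ATF5 and 9 genes that act around it in the cell's stress responses were described in SUDHL6, a human diffuse large B-cell lymphoma line, after nucleofection with siRNA pools against candidate regulators of lymphoma transformation. The genes are ATF5, ATF4, ATF3, ATF2, DDIT3, CEBPB, CEBPG, TRIB3, CREB1 and ATF1, and every array probe annotated with 1 of these symbols was taken, each probe apart. Of the 10 genes, 9 had a probe. They had 18 of the 45013 probes on the array, while ATF1 had none in the annotation used here. Of these, 12 probes of 8 genes were above background, which here means more than 0.5 log2 over the array's median on at least 3 arrays, as were 13679 probes in all. The other 6 were too dim. They were the only probe of ATF2, a constitutively expressed relative of CREB1, 2 of the 3 ATF3 probes and 3 of the 6 CREB1 probes.

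ATF4, ATF5, ATF3, DDIT3 (CHOP), CEBPB and CEBPG are basic leucine zipper (bZIP) transcription factors, which bind DNA as pairs. When an eIF2 kinase senses amino acid shortage, unfolded protein, haem lack or mitochondrial damage, translation slows in general while the ATF4 and ATF5 messages are translated better, and ATF4 with its partners then switches on DDIT3, ATF3, TRIB3 and genes of amino acid supply. CREB1, ATF1 and ATF2 bind the cAMP response element and are regulated largely by phosphorylation, so transcript level is only one layer of the control of any of these genes.

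Per the labels, cells were nucleofected with 80 pmol of an siRNA pool and total RNA was taken after 20 hours, 1 array per sample. The first set of 30 arrays held siHMGA1, siFOXM1, siTFDP1 and siATF5 with 3 arrays each, their non-target control siNT4 with 4, the pairs siHMGA1+siFOXM1 and siHMGA1+siATF5 with 3 each, siHMGA1+siTFDP1 with 4 and siTFDP1+siATF5 with 2, and the doubled control siNT4+siNT4 with 2. A further 15 arrays carry the letter A in their titles and are called set A. They held siNFYB, siFOXM1, the control siNT4, siNFYB+siFOXM1 and the doubled control siNT4+siNT4, with 3 arrays each. All groups share the cell line, the nucleofection and the time. Neither the amount of each pool in a pair nor whether replicates came from separate cultures is stated, so p-values reflect array-to-array spread only, possibly of technical origin.

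The array siTFDP1+siATF5 replicate 3 stood apart. It had 44.5% of its probes above background, against 24.2% to 30.6% on the other 44 arrays, and 16823 of its probes shared 1 identical lowest value of 6.63, among them the DDIT3 and ATF2 probes and 1 CREB1 probe. Its median correlation with the other arrays was 0.694, against 0.975 to 0.993 for the rest. All fits below therefore use 44 arrays, and a result that changes when this array is added is given both ways. siTFDP1+siATF5 is then a single array. Groups are called silencings by their labels, and not every targeted gene passed as lower. HMGA1 changed by -1.55 log2 in siHMGA1 (limma adjusted p = 2.84e-11), by -1.39 in siHMGA1+siATF5 (adjusted p = 1.65e-07) and by -1.06 in siHMGA1+siFOXM1 (adjusted p = 1.53e-04), and by -0.48 without passing in siHMGA1+siTFDP1 (adjusted p = 0.999). FOXM1 passed in 0 of the 4 groups labelled siFOXM1, alone or in a pair, with differences between -0.38 and -0.01 over its 2 probes (limma, lowest adjusted p = 0.33). NFYB differed by -0.07 in siNFYB and by 0.12 in siNFYB+siFOXM1 (limma adjusted p = 1.00 in both). Its only probe lay near background in the controls of set A, at 7.30 to 7.41 in siNT4 and 7.19 to 7.63 in siNT4+siNT4. A fall of NFYB could therefore hardly be seen, and whether it was silenced cannot be told. In the arrays labelled siATF5, both TFDP1 probes fell, with changes of -1.86 (limma adjusted p = 6.46e-17) and -1.90 (adjusted p = 1.96e-15). In siTFDP1 itself the changes were -1.06 and -0.997. In siHMGA1+siTFDP1 they were -0.63, which passed (limma adjusted p = 0.033), and -0.51, which did not (adjusted p = 0.999). On the single siTFDP1+siATF5 array both probes lay below siNT4+siNT4, by -0.76 and -0.60. TFDP1 lay between 9.26 and 9.59 on the 3 arrays labelled siATF5 over both probes and between 11.21 and 11.45 on the siNT4 arrays. In siHMGA1+siATF5 both TFDP1 probes lay between 11.12 and 11.50, and their change there exceeded that in siATF5 by 1.86 on either probe (limma adjusted p = 2.06e-10 and 6.92e-09). Results for siATF5 below are therefore those of arrays labelled siATF5 in which TFDP1 was also low, and the part of TFDP1 in them was not tested. SUDHL6 is a germinal-centre type B-cell line: 5 of 6 B-cell marker genes with a probe and 5 of 5 germinal-centre marker genes were above background, against 0 of 8 T-cell, 2 of 8 myeloid and 0 of 6 stromal and epithelial marker genes, with CD14 and FCGR3A the 2 myeloid ones.

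The promoter windows of the genes that carry the results are printed first, 300 bases around a RefSeq start site (GRCh38.p14, plus strand, 1 window per gene), because these are the members with a probe that passed in siATF5 or between the single controls of the 2 sets. Of a gene's windows, the one with the most matches to the elements below is shown, or the first by position. In the ATF5 and ATF4 windows, capitals mark the core of the cAMP response element, TGACG, here on the other strand and so read as CGTCA. In the ATF3 window, capitals mark a CEBP-ATF response element, TGATGNAA on either strand, the type of site that ATF4 and CEBP pairs bind. The TRIB3 window has no capitals, since neither was found in it.
ATF5 (chr19:49929995-49930294): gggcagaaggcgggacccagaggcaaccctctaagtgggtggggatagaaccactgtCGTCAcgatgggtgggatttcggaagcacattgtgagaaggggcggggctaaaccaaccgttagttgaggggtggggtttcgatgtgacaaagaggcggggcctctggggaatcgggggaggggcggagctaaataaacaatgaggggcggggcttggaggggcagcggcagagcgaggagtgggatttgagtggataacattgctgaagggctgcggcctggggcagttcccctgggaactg
ATF3 (chr1:212565157-212565456): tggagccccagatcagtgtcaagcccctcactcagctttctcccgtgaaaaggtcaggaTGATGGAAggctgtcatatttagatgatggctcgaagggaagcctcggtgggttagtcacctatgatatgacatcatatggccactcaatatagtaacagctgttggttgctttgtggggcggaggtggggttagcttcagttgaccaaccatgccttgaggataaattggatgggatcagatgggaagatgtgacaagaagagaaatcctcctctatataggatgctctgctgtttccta
TRIB3 (chr20:381045-381344): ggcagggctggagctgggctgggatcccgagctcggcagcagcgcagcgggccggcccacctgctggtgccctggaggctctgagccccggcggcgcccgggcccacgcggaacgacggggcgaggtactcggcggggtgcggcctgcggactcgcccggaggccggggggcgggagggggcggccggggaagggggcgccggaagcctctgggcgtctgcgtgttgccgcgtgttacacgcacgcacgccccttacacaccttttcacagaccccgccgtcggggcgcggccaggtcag
ATF4 (chr22:39520309-39520608): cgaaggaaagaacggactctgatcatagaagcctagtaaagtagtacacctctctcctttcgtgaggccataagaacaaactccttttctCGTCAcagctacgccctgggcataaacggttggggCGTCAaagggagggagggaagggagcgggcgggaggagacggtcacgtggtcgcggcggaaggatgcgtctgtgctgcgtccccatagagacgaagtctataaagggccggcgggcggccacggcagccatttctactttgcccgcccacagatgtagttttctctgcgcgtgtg
Counted from the start site, the ATF5 core lay at -193, the 2 ATF4 cores at -160 and -125, and the ATF3 element at -191. Among 20 windows, which belong to 9 of the genes and not to ATF2, the core was found in 4, against 24.6% of all 35116 windows, and the CEBP-ATF element in 2, against 3.62% of all. The full element TGACGTCA was in 0 of 20, against 1.85% of all, and a CCAAT box in 6 of 20, against 34.6%. The motifs were searched on both strands, and the core is contained in the full element. Several of these windows overlap because a gene has start sites a few bases apart, and a match in letters is not a measured binding site.

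ATF5, the silenced factor itself, was lower in the arrays labelled siATF5. Its only probe, ILMN_1669113, read 10.10, 10.06 and 10.21 on the log2 scale in siATF5, against 10.93, 10.77, 10.68 and 10.87 in siNT4. The 2 groups did not overlap. The change was -0.69 log2 (SE 0.14, 95% interval -0.98 to -0.41, limma adjusted p = 0.0055), which leaves 61.9% of the control level on the deposited scale. In RNA from whole cultures a lower level in every cell and a loss in some of them cannot be told apart. With the outlying array in the fit the change was the same and the limma adjusted p was 0.13, and without siATF5 replicate 2 the change was -0.66 with an adjusted p of 0.070. Against siTFDP1, whose 3 arrays read 10.73, 10.70 and 11.24, the arrays labelled siATF5 were lower by 0.77 (limma adjusted p = 0.011, 0.16 with 45 arrays). That comparison lost its call without siTFDP1 replicate 3 or without siATF5 replicate 2, and 1 of 12 member probes passed it, against 0.775% of all probes.

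ATF5 did not pass the test in the pairs whose labels also name siATF5. In siHMGA1+siATF5 it read 10.37, 10.44 and 10.28, against 10.63 and 10.29 in siNT4+siNT4. The groups overlapped. The change was -0.10 (95% interval -0.43 to 0.24, limma adjusted p = 1.00), and it turned to 0.08 without siNT4+siNT4 replicate 2. On the single usable siTFDP1+siATF5 array ATF5 read 10.28, a difference of -0.18 from siNT4+siNT4 (95% interval -0.63 to 0.27). The outlying array read 9.42, and with it the difference became -0.61 (limma adjusted p = 0.022). The change in siHMGA1+siATF5 exceeded that in siATF5 by 0.60 (95% interval 0.15 to 1.04), with an unadjusted p of 0.0094 and a limma adjusted p of 0.23, and did not pass. In that difference 0 of 12 member probes passed, against 0.0658% of all probes, and 4 had an unadjusted p under 0.05, against 13.1%, ATF3 among them although it was at background in 3 of the 4 groups compared. Between the controls, ATF5 was lower by 0.36 in siNT4+siNT4 than in siNT4 without passing (limma unadjusted p = 0.031, adjusted p = 1.00). With 1 array left out the difference ran from -0.53 to -0.19, and its bearing on the pairs was not tested. In set A the doubled control was likewise lower than the single one by 0.30 (unadjusted p = 0.049, adjusted p = 0.49). No member probe passed in either comparison of doubled with single control, where 0% of all probes passed in the first set and 0.402% in set A, and 1 had an unadjusted p under 0.05 in each, against 3.51% and 10.2% of all probes.

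**Figure D1:**
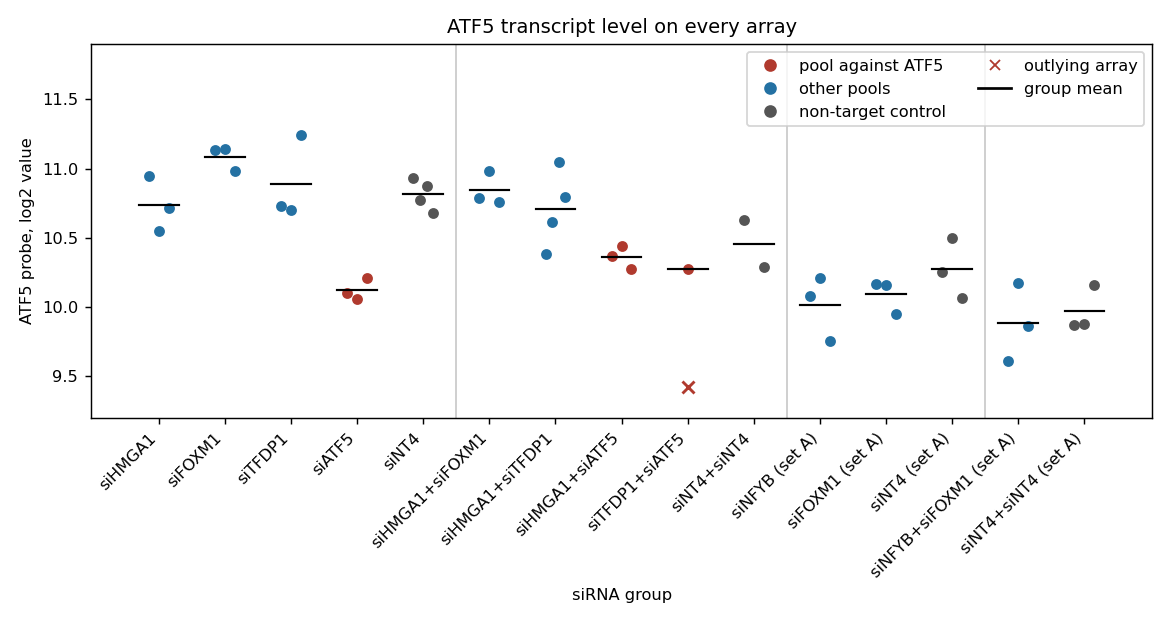
ATF5 probe level (log2) on every array by siRNA group, silenced groups left of their control within each block; points are arrays, lines group means, and the cross is siTFDP1+siATF5 replicate 3. The 3 siATF5 arrays lie between 10.06 and 10.21, below the 4 siNT4 arrays, while all set A groups average between 9.88 and 10.27.

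Ordered by mean, ATF5 was lowest in siNFYB+siFOXM1 of set A (9.88 ± 0.28, SD, n = 3) and highest in siFOXM1 of the first set (11.08 ± 0.09, n = 3). From low to high the groups between were siNT4+siNT4, siNFYB and siFOXM1 of set A, siATF5, siNT4 of set A, siTFDP1+siATF5, siHMGA1+siATF5, siNT4+siNT4, siHMGA1+siTFDP1, siHMGA1, siNT4, siHMGA1+siFOXM1 and siTFDP1. Every neighbouring pair in this order overlapped in its arrays or, for the single array, lay within the range of its neighbours. The siATF5 mean of 10.12 was the fifth from the bottom, and 4 groups of set A, none of them given an ATF5 pool, were lower. Within set A, FOXM1 did not pass as lower in the groups labelled for it, and the NFYB probe lay near background. ATF5 did not pass there either (limma, lowest adjusted p = 1.00). Its difference from the control was -0.26 in the group labelled siNFYB, -0.18 in siFOXM1 and -0.09 in siNFYB+siFOXM1. In the first set, siHMGA1+siFOXM1 had 10.79, 10.98 and 10.76, against 10.63 and 10.29 in siNT4+siNT4. These arrays did not overlap, but the difference of 0.39 had a limma adjusted p of 0.52 (unadjusted p = 0.027). A test of any change over the 11 silencings at once called ATF5 (limma F test, adjusted p = 0.013), as it did 0.146% of the probes, and no other member.

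ATF3, an early-response factor that is induced by many stresses and often acts as a repressor, moved the other way in siATF5. Its probe ILMN_2374865 read 7.79, 8.0 and 7.50 in siATF5, against 7.14, 7.39, 7.15 and 7.39 in siNT4. All siATF5 arrays were above all control arrays. The change was 0.50 (SE 0.09, 95% interval 0.31 to 0.69, limma adjusted p = 0.0028). The probe was above background on 3 of 3 siATF5 arrays and on 0 of 4 siNT4 arrays, so the fold between the means is only bounded from below. With the siNT4 arrays taken at the lowest signal that counts as above background, the siATF5 mean was 1.22-fold higher. That value makes no allowance for the spread between arrays, and the lowest siATF5 array read 7.50. The probe also passed the background filter with the siATF5 arrays left out of it, with an adjusted p of 0.0030. With 45 arrays the same change had an adjusted p of 0.33, and without siATF5 replicate 2 it was 0.38 with an adjusted p of 0.10. The other 2 ATF3 probes were dim on every array and were not called.

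ATF3 was at 7.39, 7.65 and 7.60 in siTFDP1, in which 2 of 3 arrays were above background. The difference of 0.28 from siNT4 did not pass (limma unadjusted p = 0.0046, adjusted p = 0.26), and siATF5 exceeded siTFDP1 by 0.22 (adjusted p = 0.35). In siHMGA1+siATF5, ATF3 read 7.40, 7.22 and 7.24, against 7.35 and 7.45 in siNT4+siNT4. It was above background on 0 of these 5 arrays. No size is therefore given for a difference between the pair and the single silencing. The highest ATF3 value of all 45 arrays, 8.69, was on the outlying array.

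Across the 12 probes above background, 2 passed in siATF5 against siNT4, ATF5 lower and ATF3 higher, where 3.37% of all probes passed. At an unadjusted p under 0.05 there were 4, against 21.8% of all probes. With 45 arrays 0 passed and 2 had an unadjusted p under 0.05, against 0.0551% and 10.2% of all probes. The median change of the 12 probes was 0.00 and that of all probes -0.01. The arrays labelled siATF5 were themselves uneven: replicates 1 and 2 had 29.4% and 30.6% of probes above background and replicate 3 had 25.4%, against 25.2% to 25.9% in siNT4. Once this percentage entered the model as a covariate, ATF5 changed by -0.77 (limma adjusted p = 0.17) and ATF3 by 0.45 (adjusted p = 0.31). With replicate 3 as the only siATF5 array, ATF5 still differed by -0.61 and ATF3 by 0.23, and neither passed.

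**Figure D2:**
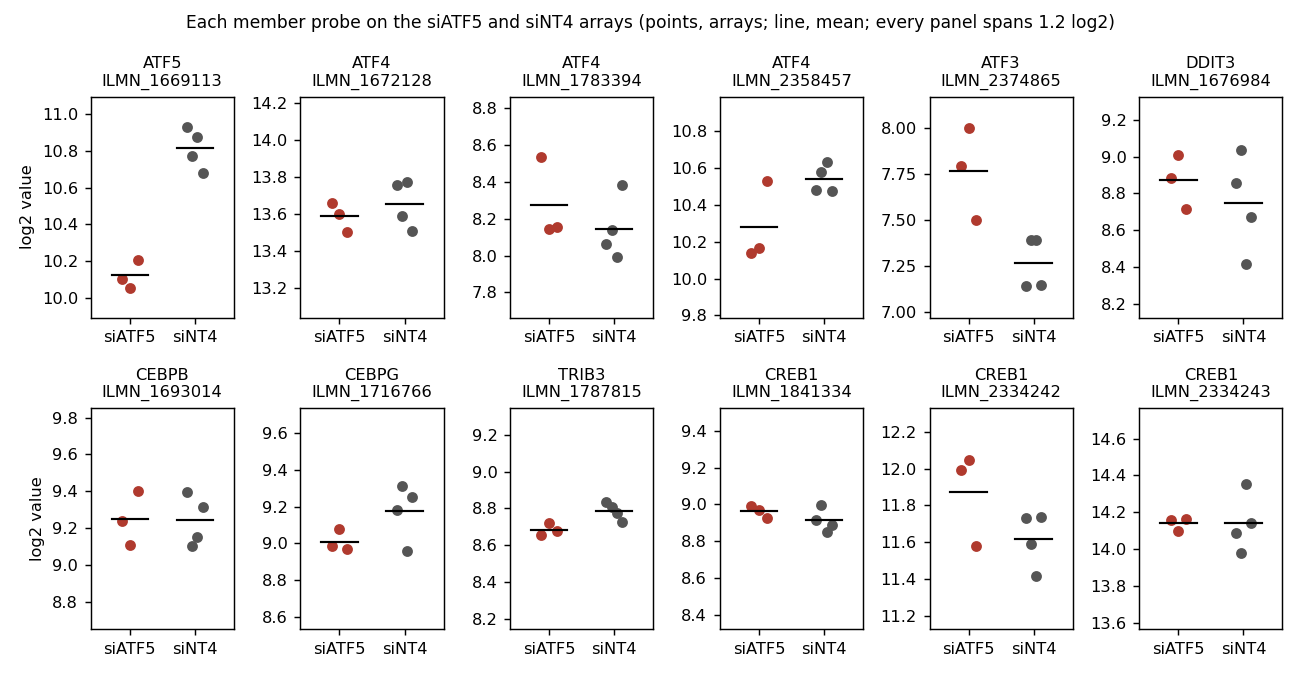
Log2 value of each of the 12 probes on the 3 siATF5 arrays (left in each panel) and the 4 siNT4 arrays (right); points are arrays, lines means, and every panel spans the same 1.2 log2. ATF5 and ATF3 separate the groups, in opposite directions, and the other panels overlap or differ by less.

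ATF4, the main effector of the eIF2 kinases, was measured by 3 probes, and they disagreed in siATF5. ILMN_2358457 read 10.14, 10.16 and 10.53 in siATF5, against 10.48, 10.58, 10.47 and 10.64 in siNT4. The first 2 arrays were below every control and the third was among them. The change was -0.27 (limma unadjusted p = 0.0082, adjusted p = 0.098), and -0.39 (adjusted p = 0.0072) without siATF5 replicate 3. The latter fit kept only replicates 1 and 2 of siATF5, with 29.4% and 30.6% of their probes above background. The share of all probes passing in it is not given. The brightest ATF4 probe, ILMN_1672128, differed by -0.07 and ILMN_1783394 by 0.13, both with overlapping arrays. Over the 11 silencings the largest ATF4 difference was 0.33 for ILMN_1783394 in siTFDP1 (limma unadjusted p = 0.017, adjusted p = 0.33), and none of the 3 probes passed in any silencing.

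DDIT3, TRIB3, CEBPG and CEBPB did not pass in siATF5. DDIT3, which promotes death under prolonged stress, read 8.89, 9.01 and 8.72 in siATF5, against 8.86, 9.04, 8.67 and 8.41 in siNT4, a difference of 0.12 (95% interval -0.13 to 0.38). TRIB3, a pseudokinase induced by ATF4 and DDIT3 that restrains both, read 8.65, 8.72 and 8.68, against 8.84, 8.81, 8.73 and 8.77 in siNT4. All siATF5 arrays of TRIB3 were below the controls, and the difference was -0.10 (limma adjusted p = 0.48). CEBPG, a short partner that lacks a strong activation domain, differed by -0.17 (adjusted p = 0.27) and CEBPB, an activator of inflammatory and metabolic genes, by 0.01 (adjusted p = 0.97). In siHMGA1+siATF5 CEBPB was higher by 0.23 (limma unadjusted p = 0.036, adjusted p = 1.00). CEBPG was lower by 0.23 in siHMGA1+siFOXM1 (unadjusted p = 0.041, adjusted p = 0.54).

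CREB1 had 3 usable probes. ILMN_2334242 read 11.99, 12.04 and 11.58 in siATF5, against 11.73, 11.59, 11.74 and 11.41 in siNT4. Replicates 1 and 2 were above all controls and replicate 3 was among them, and the difference of 0.26 did not pass (limma adjusted p = 0.23). Without replicate 3 it was 0.40 and passed (adjusted p = 0.035). That fit kept only replicates 1 and 2 of siATF5, which had 29.4% and 30.6% of their probes above background. The share of all probes passing in it is not given, so the call is not particular to CREB1. In siTFDP1 the same probe was higher by 0.28 (unadjusted p = 0.032, adjusted p = 0.38). The other 2 CREB1 probes differed by 0.05 and 0.00 in siATF5, both with overlapping arrays. The 6 dim probes lay between 6.60 and 7.55 on the 44 arrays, and with no filter 0 of them passed in any comparison (limma, lowest adjusted p = 0.35).

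**Figure D3:**
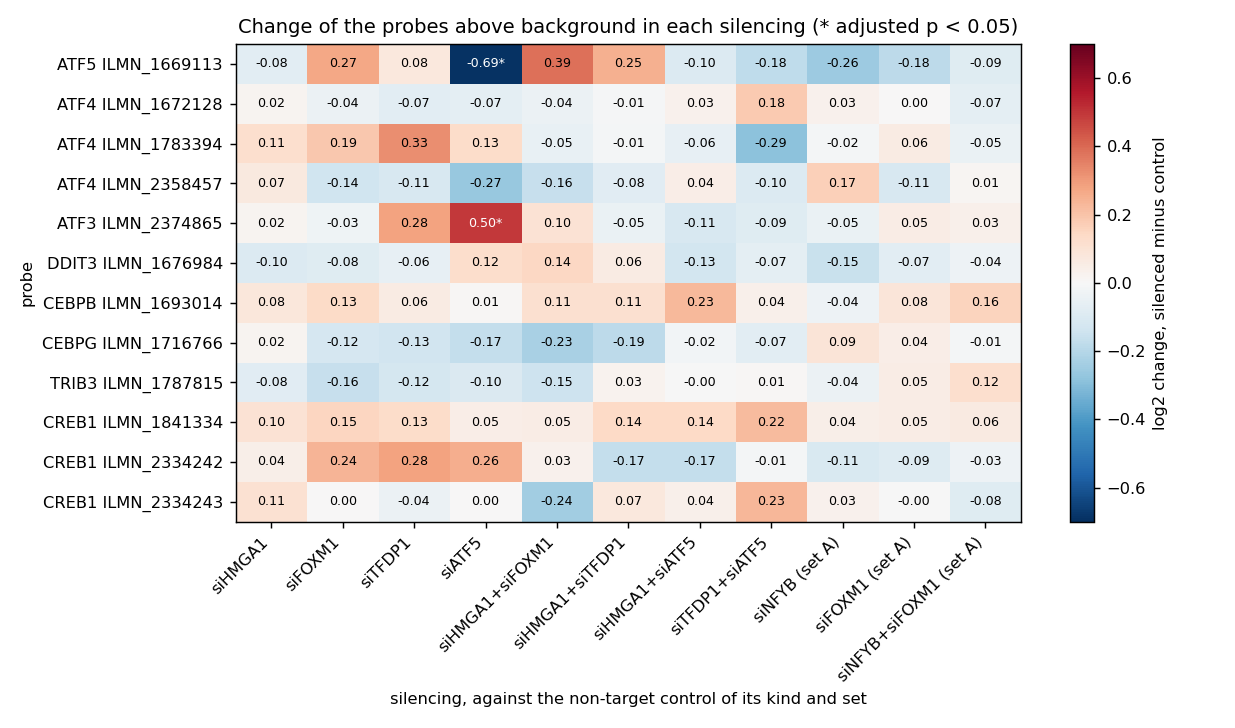
Log2 change (colour and number) of the 12 probes above background in 11 silencings, each minus the non-target control of its kind and set; an asterisk marks a limma adjusted p below 0.05 over all probes. Only 2 cells carry one, ATF5 at -0.69 and ATF3 at 0.50, both in siATF5.

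In each silencing other than siATF5, 0 of 12 member probes passed. Of all probes, 0% passed in siFOXM1, siTFDP1+siATF5, and siNFYB and siFOXM1 of set A, 0.00731% in siHMGA1, siHMGA1+siFOXM1, siHMGA1+siTFDP1, siHMGA1+siATF5 and siNFYB+siFOXM1 of set A, and 0.0512% in siTFDP1, so few probes of any kind passed. At an unadjusted p under 0.05 limma gave 3 member probes in siTFDP1 (12% of all probes), 2 in siHMGA1+siFOXM1 (8.89%), 1 in siHMGA1+siATF5 (3.84%) and 0 in the rest. With the outlying array in the fit, 8 of 12 passed in siTFDP1+siATF5, where 52.6% of all probes did, and 0 in the others.

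ATF5, TRIB3 and 1 of the ATF4 probes were lower in the non-target control of set A than in that of the first set, with no silencing in either. These comparisons were added after the values were seen. ATF5 read 10.26, 10.50 and 10.06 in siNT4 of set A, against 10.93, 10.77, 10.68 and 10.87 in siNT4 of the first set. The groups did not overlap, and the difference was -0.54 (SE 0.14, limma adjusted p = 0.023). TRIB3 read 8.47, 8.41 and 8.51 in siNT4 of set A, against 8.84, 8.81, 8.73 and 8.77 in siNT4 of the first set. It too separated the sets, by -0.32 (SE 0.08, adjusted p = 0.022). The ATF4 probe ILMN_2358457 read 10.08, 10.31 and 10.21 in set A, against 10.48, 10.58, 10.47 and 10.64 in the first set, without overlap, and differed by -0.34 (limma adjusted p = 0.042). These 3 of 12 passed, all lower in set A, where 2.49% of all probes passed and 0.709% passed as lower. The second ATF4 probe, ILMN_1672128, was lower by 0.27 (adjusted p = 0.063) and DDIT3 by 0.28 (adjusted p = 0.30), so 5 had an unadjusted p under 0.05, against 14.2% of all probes. The median change of the 12 was -0.15, against -0.01 for all probes.

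The calls between sets did not hold under every choice: 0 passed with 45 arrays (0.461% of all probes). When 1 control array was left out, between 0 and 4 passed, and the share of all probes is not given there. In the doubled controls, ATF5 read 9.87, 9.88 and 10.16 in set A, against 10.63 and 10.29 in the first set. TRIB3 read 8.43, 8.57 and 8.37 in set A, against 8.86 and 8.77. Both separated the sets, by -0.49 (limma adjusted p = 0.30) and -0.36 (adjusted p = 0.11). With 0 of 12 called and 4 at an unadjusted p under 0.05 (8.30% of all probes), where 0.387% of all probes were called, the doubled controls gave no call. ILMN_2358457 was lower by 0.28 and DDIT3 by 0.32 there. Set and whatever else differed between the sets cannot be told apart.

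**Figure D4:**
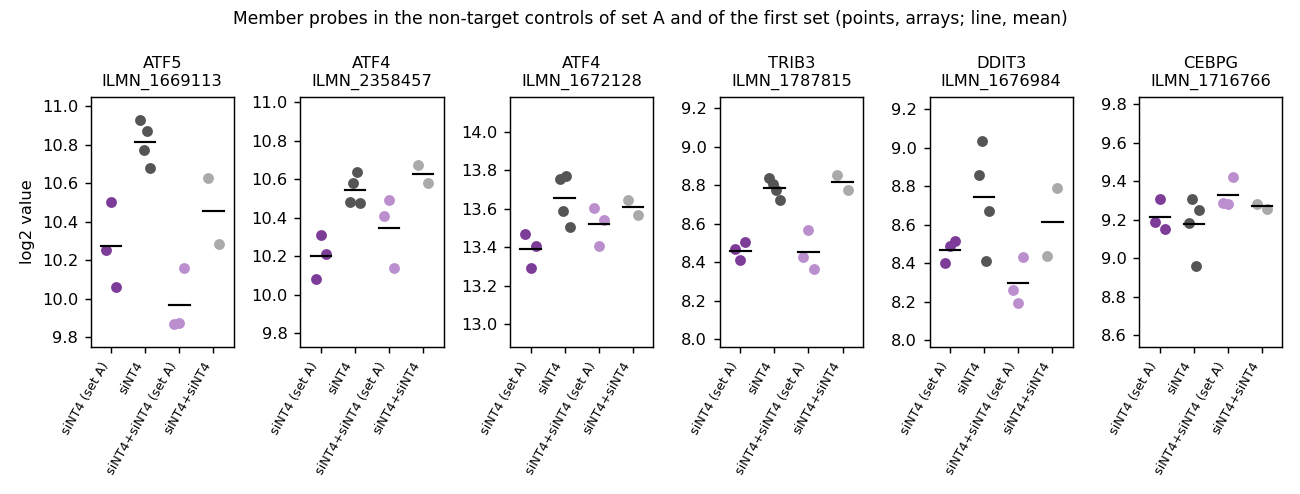
Log2 value of 6 probes in the non-target controls, from left siNT4 of set A, siNT4 of the first set, siNT4+siNT4 of set A and siNT4+siNT4 of the first set; points are arrays, lines means. ATF5 and TRIB3 of set A lie below the first set in both kinds of control, and CEBPG overlaps.

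Over all 44 arrays the medians of several members differed between the sets while their ranges overlapped, which is given as a description. TRIB3 ran from 8.36 to 8.63 (median 8.50) in set A and from 8.48 to 8.96 (median 8.76) in the first set. DDIT3 ran from 8.01 to 8.54 (median 8.40) in set A and from 8.36 to 9.04 (median 8.67) in the first set. CEBPG lay the other way, from 9.13 to 9.45 (median 9.29) in set A and from 8.89 to 9.35 (median 9.12) in the first set. ATF3 was above background on 0 of 6 non-target arrays in either set. The 7 arrays on which it was above background were 3 of siATF5, 2 of siTFDP1, 1 of siHMGA1+siFOXM1 and 1 of siHMGA1+siTFDP1, groups that set A does not have.

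Genes around the members were read in siATF5 from lists of their pathway, in a comparison where 3.37% of all probes passed. Of the targets of ATF4 and CHOP and the amino acid response, 27 probes of 23 genes were above background, and 1 passed, a share near that of all probes. It was lower and belonged to MTHFD2, the mitochondrial folate enzyme, at 9.22 ± 0.24 (SD, n = 3) in siATF5 and 9.61 ± 0.14 (n = 4) in siNT4 (limma change -0.39, adjusted p = 0.038). The list's median change was -0.10, against -0.01 for all probes. The asparagine synthetase gene ASNS, a classic target of both ATF4 and ATF5, differed by -0.14 and -0.11 on its 2 probes and did not pass. Of 16 probes for eIF2 and its kinases 0 passed (median -0.03), and of 5 for CREB coactivators and targets 0 passed (median -0.17).

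Of 18 probes for mitochondrial stress genes, a group of the kind that the ATF5 counterpart of the nematode Caenorhabditis elegans controls, 1 passed, lower, again against 3.37% of all probes. It belonged to HTRA2, a protease of the intermembrane space, at -0.46 (limma adjusted p = 0.038). The siATF5 arrays of this probe were uneven, from 7.27, at background, to 8.24 (SD 0.55), against 8.31 to 8.49 in siNT4 (SD 0.08). The second HTRA2 probe differed by 0.06. The median of that list was -0.09. Of 17 probes for other bZIP factors 1 passed, against the same 3.37%, and was CREB5, lower by 0.35 (adjusted p = 0.037), with a list median of -0.03. Of 6 probes for survival genes reported downstream of ATF5, 1 passed, of BCL2, an inhibitor of apoptosis. It was higher, at 8.01 ± 0.24 in siATF5 (SD, n = 3) and 7.47 ± 0.12 in siNT4 (n = 4), a change of 0.54 (limma adjusted p = 0.020). The siNT4 arrays read 7.31 to 7.57, around the background cut of 0.5 over their medians of 6.96 to 6.98. The size of this BCL2 change is therefore uncertain. The 2 MCL1 probes differed by 0.09 and -0.20. None of MTHFD2, HTRA2, CREB5 and BCL2 passed with 45 arrays (limma, adjusted p between 0.31 and 0.51). In siHMGA1+siATF5, 0 probes of these lists passed, against 0.00731% of all probes.

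Across the 44 arrays, with each set centred on its own mean, the 5 genes whose level ran most like ATF5 were NDUFV1 (Pearson r = 0.62), TBC1D24 (0.59), HNRNPA3 (0.57), ZNF213 (0.57) and YJU2 (0.54), out of 10643 probes with 1 symbol. The arrays share the siATF5 group, and without its 3 arrays the values were 0.58, 0.62, 0.37, 0.48 and 0.39. Of the 5, HNRNPA3 passed in siATF5, lower by 0.30 (limma adjusted p = 0.044), where 3.37% of all probes passed. Because the 5 were picked on arrays that include siATF5, a fall there is partly built in by the choice. Among the members, ATF3 had an r of -0.40 with ATF5 over the 44 arrays and of -0.09 without the siATF5 arrays, and it was above background on only 7 of the 44.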

How the data were processed

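Transcript levels were measured on Illumina BeadArrays in 45 samples of SUDHL6 cells, and groups and replicate numbers came from the sample titles. The log2 values were processed by the authors, who deposited them for 45013 probes. How background was corrected, how arrays were normalized and which log2-type transformation was applied is not stated, and differences at the dim end may be compressed. A deposited table of raw intensities, 90 columns named only by chip and position, was not used, and chip could not be tested as a batch. Gene names came from the platform annotation: 28746 probes had 1 symbol, 8 several and 16259 none, and 0 symbols were updated through RefSeq.

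One linear model with a mean for each of 15 groups was fitted to 44 arrays in R 4.3.3 with limma 3.58.1, using lmFit, eBayes and two-sided tests. Adjustment was by Benjamini-Hochberg over the 13679 probes above background at a threshold of 0.05, and the fit had 39.9 degrees of freedom. The design had assumed detection p-values for the filter, and the array median took their place. On simulated data 98% of probes changed by 1 log2 and 73% of those changed by 0.5 were recovered for siATF5 against siNT4. There 14 unchanged probes were called as well. The simulated noise was equal on every array, while the real siATF5 arrays were uneven, so these percentages may be too high. The members, the pathway lists and the tests were chosen with earlier results of these data known. Genes named were all member probes, list genes past the threshold in siATF5, 5 genes most like ATF5, and, chosen after their values were seen, ASNS and MCL1.

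Same-numbered replicates deviated together in 14 of 27 pairs of samples (r over 0.1), with r between -0.31 and 0.41. The labels do not say that equal numbers pair samples, so the main fit took none as paired. These values do not exclude a pairing, and a fit with the replicate number as a block is given below. The number of arrays limits the precision.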

Additional observations from a re-analysis of the deposited data

How the results depend on the processing

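The number of member probes called in siATF5, 2 with 44 arrays, became 0 with all 45 arrays, 1 with array weights, 1 with a stricter filter (ATF3 then being too dim to test), 0 with the percentage above background as covariate, 0 with siATF5 replicate 3 alone (added after seeing the data), and 0 to 4 with 1 array left out. The ATF5 change there, -0.69, lost its call with 45 arrays (-0.69), array weights (-0.68), the covariate (-0.77) and replicate 3 alone (-0.61), and ran from -0.74 to -0.65 with 1 array left out, losing its call without siATF5 replicate 2. In siTFDP1+siATF5 the ATF5 change became -0.61 and passed with 45 arrays, when 8 member probes passed. In siHMGA1+siATF5 it ran from -0.267 to 0.0763 with 1 array left out. For siATF5 against siTFDP1 the count of 1 became 0 with 45 arrays, array weights and replicate 3 alone, and 0 to 2 with 1 array left out. Between the single controls of the sets, 3 became 0 with 45 arrays, 1 with no filter, 1 with the replicate block, and 0 to 4 with 1 array left out: 0 without siNT4 replicate 1 or set A replicate 1, 1 without siNT4 replicate 2 or 4 or set A replicate 2 or 3. Between the doubled controls 0 became 1 with array weights. For siATF5 against siTFDP1 and between the controls, the share of all probes passing under these settings is mostly not given. Whether those member counts moved with the whole array therefore cannot be read from them. Among probes that did not pass in siATF5 in the main fit, the sign turned for some. With replicate 3 alone it turned for DDIT3 (-0.0281) and CREB1 ILMN_2334242 (-0.0370), the latter a probe that passed when replicate 3 was left out. For CEBPB it turned with the replicate block (-0.0151) and between -0.0669 and 0.0798 with 1 array left out. For CREB1 ILMN_2334243 it turned with array weights (-0.0116), quantile normalization (-0.0887) and between -0.0539 and 0.0721 with 1 array left out. ATF3 in siATF5 against siTFDP1 turned to -0.0486 with replicate 3 alone.

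The replicate block gave ATF5 -0.63 in siATF5 (limma adjusted p = 0.013) and 408 called probes there; the replicate number is no known pairing, and 15 of 27 samples correlated best with their own number. All probes called in siATF5, 461, became 8 with 45 arrays, 77 with array weights, 1148 with no filter, 176 with the stricter filter, 309 with quantile normalization values, 5 with the covariate, 55 with only arrays of the first set, 5 with replicate 3 alone, and 28 to 2409 with 1 array left out. Apart from leaving out 1 array, 226 comparisons set a count or an ATF5 value against its main value, including those listed above. Some of these settings used fewer arrays. Of the 226, 208 were rated the same. A count was rated so when it was unchanged or little changed, whichever probes passed. Most counts were 0 in the main fit, so the 208 say little on how firm the calls are. The cause of the changes listed was not tested, apart from fewer arrays or probes where the setting removes them. siTFDP1+siATF5 has 1 usable array, which could not be left out. With 2 to 4 arrays a group, changes well under 0.5 log2 often cannot be told from the spread.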
